A study of Mus musculus with 2 samples.

Results

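The 27 genes described here handle cholesterol: they make it, sense it, take it up, move it inside the cell and export it. They were chosen by name from the pathway, with earlier results of these data known, and the array names 22184 genes in all. Of the 27, 24 had such a probe set, and 21 of these were above the detection floor on at least 1 array. Acat2, Idi1 and Soat1 had no probe set with a single symbol in the annotation used, and their levels are not analysed here. Their promoters are included in the motif counts below.

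RNA came from inflammatory monocytes of the colon lamina propria, sorted from Nlrp6-/- mice and from wild-type (WT) mice, both labelled C57BL/6, with 1 array per genotype. Nlrp6 encodes a NOD-like receptor, one of the inflammasome sensors. Mice of both genotypes had received 10 mg/kg of the colon carcinogen azoxymethane (AOM) and, from day 5, 2% dextran sodium sulfate (DSS) for 5 days, which injures the colon epithelium, and cells were taken on day 10. The gate kept CD11b+ cells with high Ly6C and without CD3 or Ly6G. The labels give neither the ages and number of the mice nor how the Nlrp6 allele was made. With 1 array per genotype there are no replicates, so the values below carry no error and no p-value and describe these 2 arrays. All levels are log2 RMA (robust multiarray average) levels, and every difference is the log2 level in Nlrp6-/- minus that in WT. The detection floor, the 95th percentile of 1406 olfactory and vomeronasal receptor probe sets, was 3.22 in Nlrp6-/- and 3.26 in WT. Differences of those receptor probe sets had an SD of 0.19.

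Cells build cholesterol from acetyl-CoA through the mevalonate pathway, whose genes are switched on by the transcription factor SREBP2 when sterols in the endoplasmic reticulum are low. Cholesterol that enters with lipoproteins or engulfed cells is freed in the lysosome and passed on by the NPC proteins. When sterols are plentiful, oxysterols activate the liver X receptors (LXR), which switch on exporters and lower uptake. In monocytes and macrophages, which clear dead cells and lipoproteins, sterols control these arms in opposite directions.

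Of the 10 measured synthesis enzymes, 8 were higher in Nlrp6-/-, all by less than 1.5-fold. Insig1, the sterol sensor that holds SREBP back, was 1.86-fold higher. Abcg1, a cholesterol exporter, was 1.84-fold lower and Npc1, a lysosomal cholesterol transporter, was 1.60-fold lower. No gene of the 21 reached 2-fold in either direction. Of all 9537 measured genes 1.61% were 2-fold or more higher and 0.325% were 2-fold or more lower, shares at which a list of this size would hold few such genes or none. In RNA from a bulk sort, fewer cells of a type and less RNA per cell cannot be told apart.

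At the 1.5-fold threshold, 1 of 15 measured genes of synthesis and uptake was higher and 0 were lower. Of the 6 measured genes of trafficking and efflux, 0 were higher and 2 were lower, or 1 when probe sets were averaged per gene. Across all 9537 measured genes the shares were 6.21% higher and 3.05% lower. The median difference was 0.18 for the synthesis and uptake genes and -0.35 for the trafficking and efflux genes, beside 0.01 for all measured genes. With genes under 1 floor at their bound, the synthesis and uptake median was 0.14. With the floor at the receptors' 99th percentile it turned to -0.13, the same side of 0 as trafficking and efflux. These medians rest on few genes, since 4 of the 19 listed under synthesis and uptake and 2 of the 8 listed under trafficking and efflux were not measured.

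**Figure D1:**
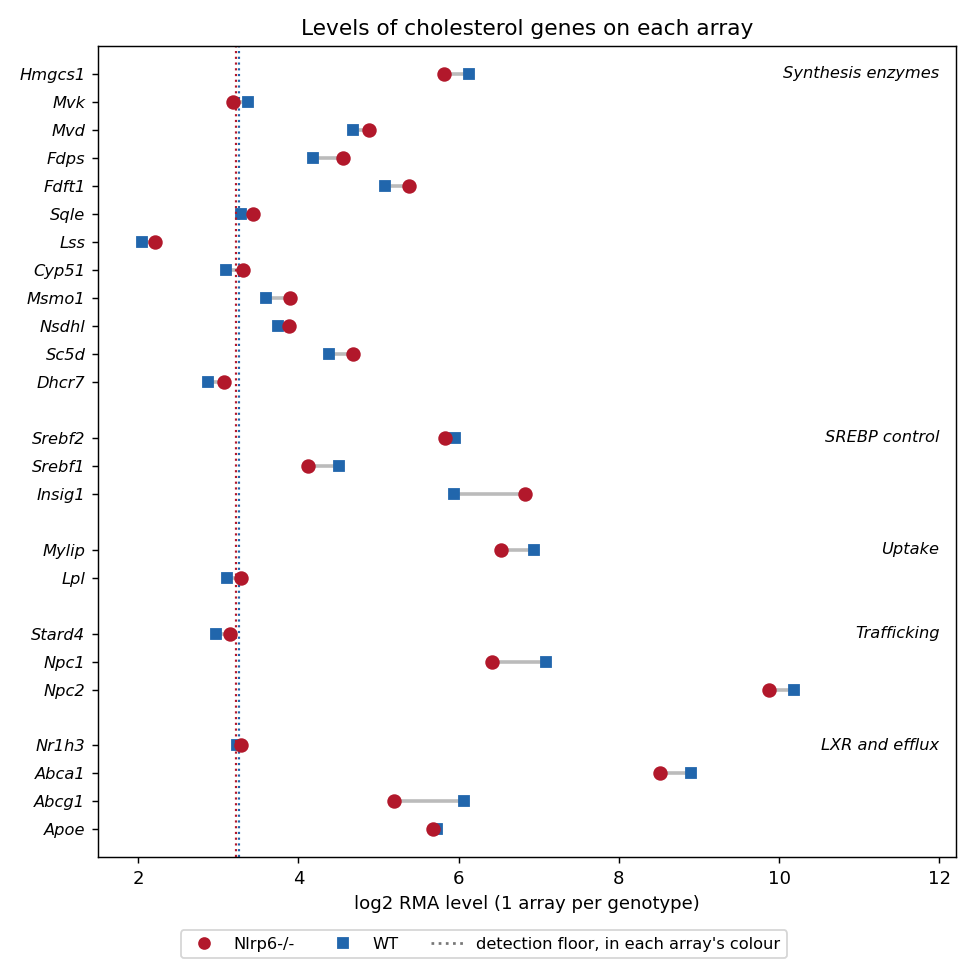
Log2 RMA level (x axis) of the 24 genes with a probe set, by role, in Nlrp6-/- (red circles) and WT (blue squares), 1 array each, with dotted lines at each array's detection floor. The red circle lies to the right of the blue square for most enzymes and for Insig1, and to its left for Npc1, Npc2, Abca1 and Abcg1.

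The promoters of 3 genes are shown. Insig1 is the SREBP regulator with the highest difference of the list. Hmgcs1 is a synthesis enzyme that was lower in Nlrp6-/-. Abca1 is an LXR-controlled exporter inside the 1.5-fold threshold. No uptake or trafficking gene is shown. The lowest genes of the list, Abcg1 and Npc1, are not shown. Each line gives the 250 bases before the annotated start from RefSeq (build GRCm38.p6), 5′ to 3′ on the gene's strand: chr5:28071162-28071411 (plus strand), chr13:119690101-119690350 (plus strand) and chr4:53159896-53160145 (minus strand). Capitals mark matches to the motifs searched.
Insig1: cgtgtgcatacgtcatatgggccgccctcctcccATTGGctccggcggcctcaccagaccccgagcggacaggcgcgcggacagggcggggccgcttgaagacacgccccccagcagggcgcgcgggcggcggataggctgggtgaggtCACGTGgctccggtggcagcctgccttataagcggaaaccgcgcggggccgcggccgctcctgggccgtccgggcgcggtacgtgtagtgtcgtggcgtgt
Hmgcs1: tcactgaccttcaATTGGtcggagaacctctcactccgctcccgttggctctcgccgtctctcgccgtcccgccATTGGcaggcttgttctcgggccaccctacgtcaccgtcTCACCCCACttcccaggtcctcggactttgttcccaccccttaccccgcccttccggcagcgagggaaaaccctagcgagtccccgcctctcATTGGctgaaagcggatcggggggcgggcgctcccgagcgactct
Abca1: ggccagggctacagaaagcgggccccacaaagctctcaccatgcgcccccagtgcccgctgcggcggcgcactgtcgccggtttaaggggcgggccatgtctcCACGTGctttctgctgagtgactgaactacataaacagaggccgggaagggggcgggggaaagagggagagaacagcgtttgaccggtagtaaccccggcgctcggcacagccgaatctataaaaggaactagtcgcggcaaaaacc

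Motifs were searched on both strands: TCACNCCAC, a form of the sterol regulatory element that SREBP binds, CCAAT, the box of NF-Y that often accompanies it, and CACGTG, an E-box. The LXR element was taken as AGGTCA repeated after 4 bases with at most 2 mismatches. The sterol regulatory element was found in 1 of the 20 listed genes with a promoter sequence, Hmgcs1, 137 to 129 bases before its start, and in 1.05% of 32851 promoters. The CCAAT box was found in 16 of the 20 listed genes, among them 10 of 11 enzyme genes with a sequence, and in 33.8% of all promoters. Some of these genes have several annotated starts, and a gene counted if any of its windows held the motif. The shares of all promoters count each window separately. Hmgcs1 has 3 CCAAT boxes, all read on the opposite strand (ATTGG). The E-box was found in 4 of the 20 listed genes, Insig1 (101 to 96 bases before its start), Abca1 (147 to 142 bases before), Sc5d and Dhcr7, and in 6.02% of all promoters. The LXR element was found in 1 listed gene, Dhcr7, and in 2.57% of all promoters. The other motifs were searched without mismatches, so other forms of the sterol regulatory element were not counted. LXR repeats with more than 2 mismatches were not counted either. A window without a match may therefore still hold another form of the sterol regulatory or LXR element. That of Abca1 holds GGGTTA and CGGTCA, spaced by 4 bases on the opposite strand, a repeat with 3 mismatches. These matches describe letters in a window, and binding was not measured.

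Among the enzymes that start the pathway, Hmgcs1, which condenses acetyl-CoA units into HMG-CoA, was at 5.82 in Nlrp6-/- and 6.13 in WT, a difference of -0.31. Mvk, mevalonate kinase, was at 3.18 in Nlrp6-/-, under the floor, and 3.37 in WT. Mvd, which makes the isoprene unit from mevalonate, was at 4.88 in Nlrp6-/- and 4.68 in WT. Of the 3, Hmgcs1 and Mvk were thus lower in Nlrp6-/-, and only Mvd was higher.

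From farnesyl diphosphate onward every measured enzyme of the 27 genes was higher in Nlrp6-/-. Fdps, which makes farnesyl diphosphate for sterols and for protein prenylation, was at 4.56 in Nlrp6-/- and 4.18 in WT, the largest difference among the enzymes at 0.38. Fdft1, squalene synthase, was at 5.37 in Nlrp6-/- and 5.08 in WT, a difference of 0.30. Sqle, squalene epoxidase, a rate-limiting enzyme of the sterol branch, was near the floor at 3.43 in Nlrp6-/- and 3.28 in WT.

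The later enzymes, which turn lanosterol into cholesterol, had the same direction. Msmo1, the methylsterol oxidase, was at 3.89 in Nlrp6-/- and 3.59 in WT, and Sc5d, a sterol desaturase, at 4.68 in Nlrp6-/- and 4.39 in WT. Nsdhl, a sterol dehydrogenase, differed by 0.14. Cyp51, the lanosterol demethylase, was above the floor in Nlrp6-/- only, at 3.31 against 3.09 in WT, so its difference is bounded at 0.05. Lss, lanosterol synthase, and Dhcr7, the last reductase of the pathway, were below the floor on both arrays. Of the 8 enzymes above the floor on both arrays, 7 were higher and 1 was lower in Nlrp6-/-, beside 50.7% higher among all 8570 genes above both floors. Each of these differences was common among genes of similar level: of 2086 genes within 0.5 of the mean level of Fdps, 26.9% differed by at least as much.

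The regulators did not share a direction. Insig1, itself an SREBP target, was at 6.83 in Nlrp6-/- and 5.94 in WT, a difference of 0.895. Only 196 of the 8570 genes above both floors had a higher difference, and 4.10% of the 1367 genes of similar level differed by at least as much in either direction. Srebf2, which encodes SREBP2, was at 5.83 in Nlrp6-/- and 5.96 in WT. Srebf1, whose product drives fatty acid genes and which LXR induces, was at 4.11 in Nlrp6-/- and 4.51 in WT, a difference of -0.39. Of these 3 regulators Insig1 was higher and the others were lower. Its paralogue Insig2, from the further list and named after its value was seen, was above the floor in Nlrp6-/- only, at 3.62 against 3.25 in WT, with a bound of 0.36.

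**Figure D2:**
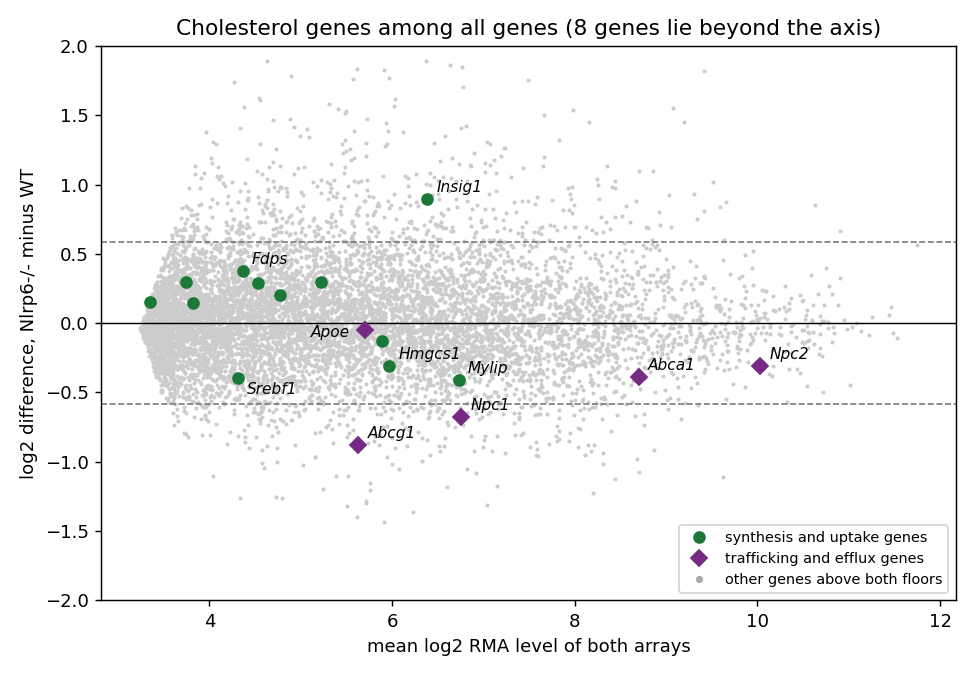
Log2 difference, Nlrp6-/- minus WT (y axis), against the mean log2 level of both arrays (x axis) for the 8570 genes above both floors, with 8 genes beyond the y axis. Dashed lines mark 1.5-fold. Insig1 (0.895) lies above the upper line, and Npc1 (-0.68) and Abcg1 (-0.88) lie below the lower line, while the enzymes lie within the main band of genes.

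The lowest difference of the 21 measured genes belonged to an exporter. Abcg1, which hands cholesterol to high-density lipoprotein, was at 5.19 in Nlrp6-/- and 6.07 in WT, a difference of -0.88. Of the 8570 genes above both floors, 63 had a lower difference, and 5.17% of the 1527 genes of similar level differed by at least as much in either direction. Abca1, which hands cholesterol to lipid-poor apolipoprotein A-I, was at 8.51 in Nlrp6-/- and 8.90 in WT, a difference of -0.39. Both exporters are LXR targets, and both were lower in Nlrp6-/-.

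Apoe, a lipoprotein component secreted by macrophages and another LXR target, did not share this size of difference, at 5.68 in Nlrp6-/- and 5.73 in WT. Nr1h3, which encodes LXR-alpha, was at the floor, at 3.28 in Nlrp6-/- and 3.24 in WT. Mylip, an LXR-induced ubiquitin ligase that lowers lipoprotein uptake, was at 6.52 in Nlrp6-/- and 6.94 in WT, a difference of -0.41. Lpl, lipoprotein lipase, was above the floor in Nlrp6-/- only, at 3.29 against 3.11 in WT, with a bound of 0.03. Genes that LXR also induces in macrophages lay on the other side of 0 among the further genes: Apoc2 differed by 0.49, Apoc1 by 0.36 and Pltp, a phospholipid transfer protein, by 0.15. These 3 were set beside Abca1 and Abcg1 after their values were seen.

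Both lysosomal carriers were lower as well. Npc1, the membrane protein that passes cholesterol out of the lysosome, was at 6.42 in Nlrp6-/- and 7.10 in WT, a difference of -0.68. A second, dimmer Npc1 probe set was at 3.07 in Nlrp6-/- and 3.46 in WT, with the same direction and a difference of -0.39. The mean of both probe sets put Npc1 at -0.54, inside the 1.5-fold threshold. Npc2, the soluble lysosomal partner that delivers cholesterol to NPC1, was at 9.88 in Nlrp6-/- and 10.19 in WT, a difference of -0.31. Of 1267 genes near the level of Npc1, 8.45% differed by at least as much, and of 147 genes near that of Npc2, 17.7% did. Stard4, a cytosolic sterol carrier, was below the floor on both arrays.

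Another 49 genes of the pathway were listed beside these, 42 of them with a probe set and 33 measured. Of the 33, 2 were at least 1.5-fold higher and 1 was at least 1.5-fold lower, shares close to the 6.21% and 3.05% of all measured genes, and their median difference was -0.03. The others are not analysed here.

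The gene past the threshold on the low side was Lipa, lysosomal acid lipase, which frees cholesterol from its esters upstream of NPC2 and NPC1. It was at 7.12 in Nlrp6-/- and 8.07 in WT, a difference of -0.96, and 36 of the 8570 genes above both floors had a lower value. Of the 827 genes of similar level, 2.06% differed by at least as much. All 4 measured genes of the uptake list lay below WT, and their median was -0.49. Outside the naming rule, and chosen after their values were seen, Lrp1, an endocytic receptor, differed by -0.41 and Cd36, a scavenger receptor, by -0.57. Lipa, Npc2 and Npc1, which act in turn on lysosomal cholesterol, were all lower. Lysosomal genes outside these lists went both ways, with Clcn7 at -0.81 and Ctsz at -0.62, but Aga at 0.76 and Atp6v0a1 at 0.58. They were picked after their values were seen, and whether the lower values are particular to cholesterol genes was not tested.

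On the high side were Ggps1 and Acly. Ggps1, which makes the geranylgeranyl groups that anchor small GTPases, was at 6.31 in Nlrp6-/- and 5.71 in WT, a difference of 0.60. Acly, which supplies cytosolic acetyl-CoA for sterols and fatty acids, was at 5.50 in Nlrp6-/- and 4.92 in WT, a difference of 0.59. Both lay just past the threshold of 0.585, and neither reached it with quantile normalization renewed, at 0.57 for Ggps1 and 0.56 for Acly. With the stricter floor Acly was bounded at 0.43. In the further synthesis list 3 of 5 measured genes were higher, with a median of 0.07. Among them Tm7sf2, a sterol reductase named after its value was seen, was at 3.25 in Nlrp6-/- and 3.50 in WT, against the direction of the later enzymes.

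The other lists had medians near 0. Of the trafficking and storage list 4 of 7 measured genes were higher, with a median of 0.03 and Gramd1a, which carries plasma membrane cholesterol to the endoplasmic reticulum, at 7.43 in Nlrp6-/- and 6.86 in WT. Of the further efflux list 4 of 8 were higher, with a median of 0.01 and Apoc2, the cofactor of lipoprotein lipase, at 6.35 in Nlrp6-/- and 5.86 in WT. Of the further genes of SREBP control 2 of 4 were higher, and Mbtps1, the protease that first cuts SREBP, was at 4.42 in Nlrp6-/- and 4.84 in WT. The lower values of Abca1 and Abcg1 were therefore not shared by the further efflux genes as a list.

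Markers of the sorted cells and of other cells were read on the same arrays. Summed linear levels cover every marker of a list with a probe set, also those below the floor. All 9 monocyte markers with a probe set were above both floors, with a median difference of 0.07 and a summed linear level of 5169 in Nlrp6-/- and 5356 in WT; Ly6c2, the sorted antigen, was at 9.36 in Nlrp6-/- and 9.06 in WT, and F13a1 differed by 1.06. Of 10 macrophage markers 6 were measured, with a median of -0.07 (0.0018 with Mertk, under the floor in Nlrp6-/-, at its bound) and a summed level of 667 in Nlrp6-/- and 733 in WT; 0 reached 1.5-fold in either direction, and Cd163, Vsig4, Timd4 and C1qc were below the floor on both arrays. The macrophage markers with the largest differences above both floors were Adgre1 at -0.25, C1qb at 0.22 and C1qa at -0.22. Nlrp6 was below the floor on both arrays, at 2.67 in Nlrp6-/- and 2.32 in WT, so it does not check the labels.

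Epithelial markers differed most: 9 of 12 were at least 1.5-fold higher and their summed level was 701 in Nlrp6-/- and 295 in WT, with Lypd8 at 1.87, Muc13 at 1.79 and Lgals4 at 1.57. B and plasma cell markers had 4 of 8 at least 1.5-fold higher, with sums of 1334 in Nlrp6-/- and 727 in WT and Mzb1 at 1.62. Neutrophil markers had 3 of 10, Retnlg, S100a8 and S100a9, with sums of 528 in Nlrp6-/- and 340 in WT. Of the 10, 6 were measured and Mmp8 was lower, at -0.17, while Mpo, Ngp, Camp and Ltf were below the floor on both arrays. Stromal and endothelial markers had 4 of 10, with sums of 1213 in Nlrp6-/- and 617 in WT and Mgp at 1.45. Of these 10, 2 were lower, among them the endothelial marker Cdh5 at -0.39, while Pecam1, also endothelial, was at 0.24. Across all measured genes 6.21% were at least 1.5-fold higher. T and NK markers, with sums of 145 in Nlrp6-/- and 132 in WT, and dendritic cell markers, with 318 in Nlrp6-/- and 341 in WT, had 0 members 1.5-fold apart. Only 2 of the 8 dendritic cell markers were measured, Ccr7 and Btla. Sterol synthesis genes and Insig1 are used by most cell types, and the part of these other cells in the higher enzyme and Insig1 levels and in the lower exporter levels was not tested.

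**Figure D3:**
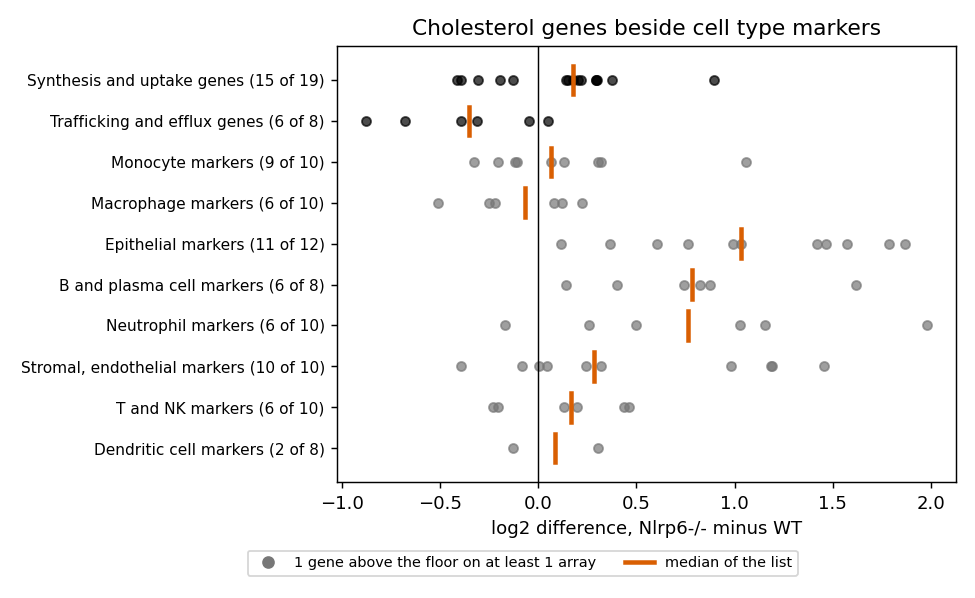
Log2 difference, Nlrp6-/- minus WT, of each measured gene (points) and the median of its list (orange bars), for the cholesterol genes (black) and the cell type marker lists (grey), with the number measured of those listed. The monocyte and macrophage medians lie near 0, the epithelial median at 1.03, and the trafficking and efflux median at -0.35.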

How the data were processed

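Expression was measured on Affymetrix Mouse Gene 2.1 ST arrays, 1 per genotype. Per the labels' protocols, 10 ng of RNA was amplified, and the authors computed RMA values with the oligo package in R 2.15.1; the deposited table holds log2 levels, with medians of 2.84 in Nlrp6-/- and 2.87 in WT. RMA equalises the arrays' distributions, so a shift of all transcripts cannot be seen. The sources used here do not name the arrays that were normalized jointly.

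Of 41345 probe sets, 23525 had 1 gene symbol in the platform annotation, 1810 had several and 16010 had none; only the first kind was named. Of these, 23328 matched the RefSeq gene table, and 0 symbols changed. The probe set with the highest mean level stood for its gene, which left 22184 genes. Genes were called measured when at least 1 array had them above the floor (9537 genes). Below the floor on 1 array, its difference was bounded by that floor or its own level, whichever was higher. Counts past a fold used these bounds, and list medians used the measured levels unless a bound is named. With 1 array per genotype no test was run, and the number of arrays limits the precision. A gene counted as apart at 1.5-fold.

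Members and lists were chosen with earlier results of these data known. Named genes were all members, further pathway genes past 1.5-fold or the largest of their list, and up to 3 markers a list. Alternatives were 3 other scalings (the loess span was 0.3), 2 other floors, the mean of probe sets, a 2-fold threshold, another grouping and the list mean. The steps were tested on simulated arrays with known changes. Python 3.11.15, pandas 2.3.3 and statsmodels 0.14.6 were used.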

Additional observations from a re-analysis of the deposited data

How the results depend on the processing

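Of 114 values of the listed genes under the 6 alternatives of scaling, floor and probe sets, 0 had the other sign. Many of these values could not change sign. Another floor does not alter the value of a gene that stays above it on both arrays. Averaging does not alter a gene with a single probe set, and genes not measured under an alternative were not counted. Insig1 ranged from 0.87 to 0.91, Abcg1 from -0.91 to -0.86 and Npc1 from -0.69 to -0.54. With the mean of probe sets, 1 gene of trafficking and efflux was 1.5-fold lower instead of 2, because the second Npc1 probe set differed less. With a stricter floor, the receptors' 99th percentile, the synthesis and uptake median was -0.13, as most enzymes then fell below the floor, and 1 further pathway gene was 1.5-fold higher instead of 2. With quantile normalization renewed, 0 further genes were 1.5-fold higher, since Ggps1 and Acly lay at the threshold. At 2-fold, 0 genes of synthesis and uptake were higher, 0 of trafficking and efflux were lower, and 0 further genes were apart in either direction. Other counts and medians were within 1.5 times, or within the receptor SD of 0.19, of the values given. No paired analysis was possible because each genotype has 1 array.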

Other observations

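SREBP1 and LXR also govern fatty acid synthesis, and 5 of the 10 genes listed for it were measured, with a median difference of -0.07. Acly was at the 1.5-fold threshold, at 0.59 and at 0.56 with quantile normalization renewed, and Fads2, a fatty acid desaturase, was above the floor in Nlrp6-/- only, at 3.74 against 3.22 in WT, with a bound of 0.48. The other 3 measured genes were lower in Nlrp6-/-, with Elovl5, a fatty acid elongase, at -0.08: Fasn, fatty acid synthase, was at 3.38 in Nlrp6-/- and 3.75 in WT, and Acaca, acetyl-CoA carboxylase, at 3.45 in Nlrp6-/- and 3.52 in WT. Scd1, Fads1, Elovl6 and Me1 were below the floor on both arrays.

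Apoe lies beside Apoc1 in the RefSeq gene order, and Apoc2 lies 3 coding genes away. Apoe differed by -0.05. Apoc1, an apolipoprotein of macrophages, was at 4.84 in Nlrp6-/- and 4.48 in WT, a difference of 0.36, and Apoc2 differed by 0.49. Tomm40, on the other side of Apoe, differed by -0.08, close to Apoe.

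The 2 probe sets of Nceh1, a cholesterol ester hydrolase, lay on opposite sides of 0. The brighter was at 6.64 in Nlrp6-/- and 6.49 in WT, and the dimmer at 4.59 in Nlrp6-/- and 5.05 in WT. Which transcripts each one reads is not analysed here. These genes were chosen after their values were seen.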
